A study of Mus musculus with 6 samples.

Results

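The vascular endothelial growth factor (VEGF) family was followed through 9 genes: the receptor tyrosine kinases Flt1, Kdr and Flt4, the co-receptors Nrp1 and Nrp2 (neuropilins), and the ligands Vegfa, Vegfb, Vegfc and Pgf. All 9 were found by symbol among the 49585 gene IDs of the count table. The family was chosen on the contrast between the Zac1 and EGFP libraries, in which Flt1 was already known to stand among the larger rises, so the members' levels, fold changes and calls in that contrast are given as a description, without p-values. The cells were AML12, a mouse hepatocyte line established from a TGF-alpha transgenic animal. They received an over-expression construct with the open reading frame of Zac1, the zinc-finger factor that the imprinted gene Plagl1 encodes, or of EGFP, a fluorescent protein that served as the control. Polyadenylated RNA was sequenced 24 h later in 3 libraries per group, numbered 1, 2 and 3 for EGFP and 4, 5 and 6 for Zac1. The sources used here do not give the promoter of the constructs, the share of cells that took them up, or whether libraries were grown as separate cultures. Every p-value therefore measures the spread between these libraries, which may be technical.

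VEGF ligands are secreted dimers that bind receptor tyrosine kinases on the cell surface. VEGF-A binds the products of Flt1 (VEGFR1) and Kdr (VEGFR2), with KDR as the main signalling receptor of blood vessel endothelium. Placental growth factor (Pgf) and VEGF-B bind FLT1 and not KDR. VEGF-C binds FLT4 (VEGFR3), the receptor of lymphatic endothelium. Neuropilins bind VEGF and class 3 semaphorins and pass signals on through receptor kinases or plexins. In liver, hepatocytes are a source of VEGF-A, while FLT1 and KDR are best known from sinusoidal endothelium. Flt1 transcripts can also end early and encode a soluble receptor that binds ligand without signalling.

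Library totals ran from 14801240 to 18302538 counts. Plagl1 was read 39 to 79 times in the EGFP libraries and 106033 to 148382 times in the Zac1 libraries, which matched the labels. On a principal component analysis the groups lay apart on the leading axis (53.1% of the variance), and the next axis (20.2%) set EGFP 1 (10.6) and Zac1 4 (11.5) apart from the other 4 libraries (-8.68 to -2.46). Of 12130 genes tested, 3.12% were called higher and 0.668% lower in Zac1 (edgeR quasi-likelihood test, adjusted p below 0.05 over all genes tested). These were 378 and 81 genes. They became 364 and 113 with a robust GC curve removed. With a least-squares curve, added after seeing the data, they became 338 and 710. In 11.9% of the tested genes every Zac1 library was above every EGFP library. Over these genes the log2 fold changes had a median of -0.002.

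The start regions of 3 of the genes are shown first, because 2 of them, Flt1 and Pgf, were called higher together and the third, Kdr, is the near-silent relative of Flt1. Each is the 300-base RefSeq window on GRCm38.p6, from 250 bases before the annotated start to 50 bases after it, read 5′ to 3′ on the gene's own strand. All 3 genes lie on the minus strand, Flt1 at chr5:147725962-147726261, Kdr at chr5:75978406-75978705 and Pgf at chr12:85177264-85177563. Capitals mark GC boxes (GGGCGG on either strand), a cAMP response element (TGACGTCA) and a TATA box (TATAAA).
Flt1: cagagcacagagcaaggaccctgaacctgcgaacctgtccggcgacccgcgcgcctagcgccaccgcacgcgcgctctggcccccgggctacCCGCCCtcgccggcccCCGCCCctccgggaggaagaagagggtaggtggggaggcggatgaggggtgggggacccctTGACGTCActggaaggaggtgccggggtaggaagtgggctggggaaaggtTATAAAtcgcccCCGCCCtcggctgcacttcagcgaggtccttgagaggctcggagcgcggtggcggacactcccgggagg
Kdr: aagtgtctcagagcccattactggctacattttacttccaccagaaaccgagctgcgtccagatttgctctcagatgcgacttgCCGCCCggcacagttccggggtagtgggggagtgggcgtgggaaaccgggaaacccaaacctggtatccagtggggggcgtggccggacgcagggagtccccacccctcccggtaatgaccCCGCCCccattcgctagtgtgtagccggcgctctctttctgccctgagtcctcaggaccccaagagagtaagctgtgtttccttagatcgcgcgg
Pgf: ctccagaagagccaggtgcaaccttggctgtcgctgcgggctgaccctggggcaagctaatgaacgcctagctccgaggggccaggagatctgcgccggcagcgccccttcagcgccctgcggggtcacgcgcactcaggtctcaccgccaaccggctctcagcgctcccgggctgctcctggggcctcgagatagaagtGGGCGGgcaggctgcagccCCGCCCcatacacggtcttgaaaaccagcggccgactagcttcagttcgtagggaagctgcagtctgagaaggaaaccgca
The Flt1 window held a TATA box at position -31 and a cAMP response element at -81, counted from the start to the first base of the match, besides 3 GC boxes. TATAAA stood in 13.6% and TGACGTCA in 1.79% of all 32851 windows of this length, searched on both strands. Among the 11 windows of the 9 genes (Vegfa and Pgf have 2 each), Flt1's was the only one with either. GC boxes stood in 10 of the 11 and in 35.7% of all windows. The 11 windows held 59.3% to 75.3% G and C, against a median of 52.7% for all windows. No comparison was made with windows of like G and C content. The boxes overlapped no other motif searched, though a pair of them in the Nrp2 window share a base. ACGTG, a form of the core to which HIF proteins bind, stood in 1 of the 11, the downstream Vegfa window, and in 19.6% of all. Other forms of that core were not searched, so the share does not cover all HIF sites. GGGGCCCC, a palindrome that ZAC1 is known to bind, was in none of the 11 windows and in 1.08% of all; other sequences and distances were not searched. A match is a match of letters, and these libraries hold no measurement of binding.

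Of the 9 genes, 8 reached the mean count of 10 that the test required, and 3 of these were called higher in Zac1 (Flt1, Pgf and Flt4) and 0 lower, beside 3.12% of all tested genes called higher. Every Zac1 library was above every EGFP library for 5 of the 8 (Flt1, Flt4, Pgf, Vegfb and Vegfc), beside 11.9% of all tested genes. Kdr was under the minimum. Since the family was picked on this contrast, those counts carry no weight as evidence about it. In these bulk libraries, more RNA per cell and more cells with the RNA cannot be told apart.

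**Figure D1:**
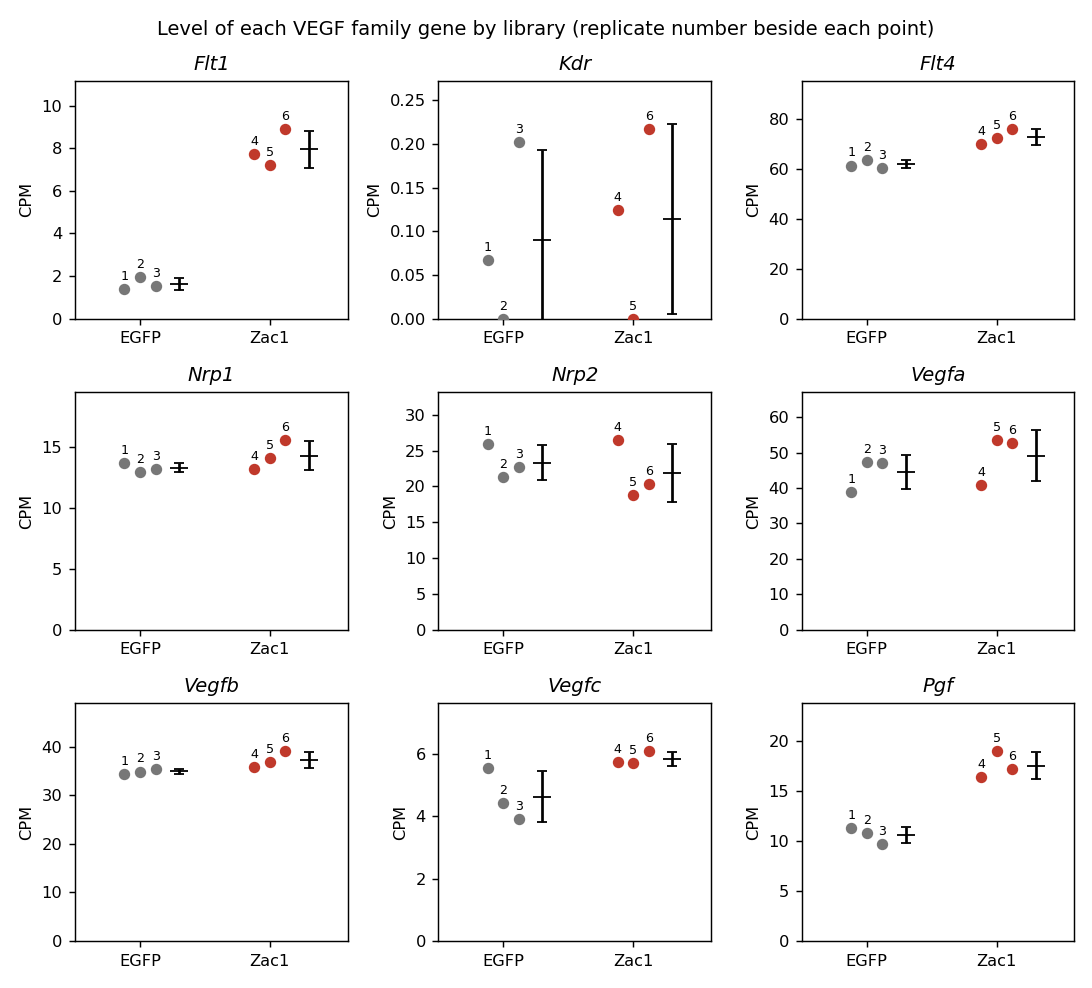
Library-size-scaled counts (CPM, vertical axis from 0) of each gene in the 3 EGFP libraries (grey) and the 3 Zac1 libraries (red); each point is 1 library with its number, and the bar beside it is the mean ± SD. Flt1 and Pgf are apart in the 2 groups, Kdr is near 0 in both, and Vegfa and Nrp2 overlap, with libraries 1 and 4 as the lowest Vegfa and the highest Nrp2 points of their groups.

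Among the receptors, Flt1 (ENSMUSG00000029648, chr5:147561604-147726011) was read 21, 29 and 23 times in EGFP 1, 2 and 3 and 124, 123 and 164 times in Zac1 4, 5 and 6. Scaled to library size, these were 1.40, 1.95 and 1.55 CPM against 7.72, 7.23 and 8.92 CPM, so every Zac1 library was far above every EGFP library. The means were 1.63 ± 0.283 and 7.96 ± 0.872 CPM (SD, n = 3), a 4.86-fold rise (log2 fold change 2.28, SE 0.19). The gene stayed weakly expressed. Per kilobase of exon its level exceeded 1.9% of the tested genes in EGFP and 9.52% in Zac1. GENCODE M21 lists 6 transcripts of Flt1, 2 of them protein coding, and counts per gene do not separate the soluble from the membrane form.

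Kdr (ENSMUSG00000062960), the main signalling receptor for VEGF-A, was read 1, 0 and 3 times in EGFP and 2, 0 and 4 times in Zac1. Summed over the libraries of a group, 4 and 6 reads gave a ratio of 1.3 after scaling, with an exact 95% interval of 0.309 to 6.28 that covers counting error only. A rise of the size fitted for Flt1 lies inside that interval, so these libraries could not show whether Kdr differed.

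Flt4 (ENSMUSG00000020357), the VEGF-C receptor, was by far the most abundant of the 3 receptors. It stood at 61.3, 63.7 and 60.5 CPM in EGFP and at 70.1, 72.2 and 76.2 CPM in Zac1. The groups did not overlap, but the rise was 1.18-fold (log2 fold change 0.24, SE 0.06), much smaller than that of Flt1. Its call was lost in 9 of 18 other settings. It was lost without EGFP 1 (0.23), EGFP 2 (0.26), EGFP 3 (0.22), Zac1 5 (0.24) or Zac1 6 (0.203), log2 fold changes close to the one above, and the fold change was 0.17 or 0.09 when a trend with GC content was removed. Flt4 transcripts hold 56.5% G and C, against a median of 49.4% for tested genes, and Flt1 holds 50.5%.

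The balance between the receptors shifted with Flt1. Per kilobase, Flt4 exceeded Flt1 by 71.9, 53.6 and 63.9 times in EGFP 1, 2 and 3 and by 14.9, 16.4 and 14.0 times in Zac1 4, 5 and 6. Flt1 made up 1.58% ± 0.233 of the summed level of the 3 receptors in EGFP and 6.23% ± 0.452 in Zac1 (SD, n = 3). Flt4 remained the bulk of the receptor RNA in all 6 libraries. The ratios and shares depend on the length used. With the longest transcript as the length, the mean levels of Flt4 and Flt1 were 9.89 and 0.237 CPM per kb in EGFP. In Zac1 they were 11.6 and 1.15, so the gap was smaller in both groups than with the union of exons.

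Of the 4 ligands of the family as chosen, Pgf (ENSMUSG00000004791, chr12:85166635-85177790) had the largest fitted fold change. It stood at 11.3, 10.8 and 9.73 CPM in EGFP and at 16.4, 19.0 and 17.2 CPM in Zac1. No library of one group fell within the range of the other. The rise was 1.66-fold (log2 fold change 0.73, SE 0.11). It was 0.67 or 0.59 on the log2 scale with the GC trend removed, and Pgf transcripts hold 56.3% G and C. Flt1 and Pgf, a receptor and a ligand that binds it, were called in the main fit and in all 18 other settings, each single library left out included.

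Vegfb, the other ligand that binds FLT1 and not KDR, stood at 34.3, 34.9 and 35.5 CPM in EGFP and at 35.9, 36.9 and 39.1 CPM in Zac1. The groups touched almost edge to edge, and the log2 fold change of 0.1 (SE 0.07) was not called. That value turned with the processing: it was -0.04 with a robust GC curve and -0.27 with a least-squares one, which called Vegfb lower. Its transcripts hold 62.6% G and C, the highest of the 9 genes.

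Vegfa, the chief ligand of vessel growth, was at 38.9, 47.3 and 47.2 CPM in EGFP and 40.9, 53.6 and 52.8 CPM in Zac1. The groups overlapped, and EGFP 1 and Zac1 4 were the low library of each. Its log2 fold change was 0.15 (SE 0.1), 0.06 without EGFP 1, 0.26 without Zac1 4 and 0.18 (SE 0.07) without both, and it was called in none of these fits. Vegfc, which acts through FLT4, was at 5.53, 4.43 and 3.92 CPM in EGFP and 5.73, 5.7 and 6.09 CPM in Zac1. EGFP 1 nearly reached the Zac1 libraries, and the log2 fold change of 0.34 (SE 0.16; 0.5, SE 0.2 without EGFP 1 and Zac1 4) was not called.

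**Figure D2:**
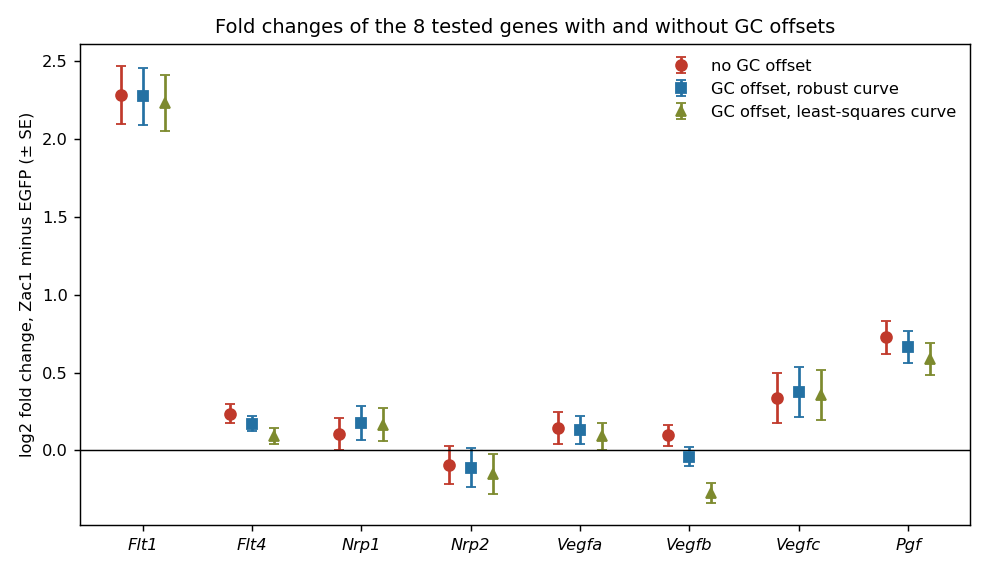
Log2 fold changes (Zac1 minus EGFP, vertical axis, bars are ± SE) of the 8 tested genes without a correction for GC content (circles) and with a robust (squares) or least-squares (triangles) GC curve removed. Flt1 stays at 2.23 or more and Pgf at 0.59 or more in the 3 fits, Flt4 shrinks from 0.24 to 0.09, and Vegfb passes from 0.1 to -0.27.

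The neuropilins showed no called difference. Nrp1 was at 13.7, 13.0 and 13.2 CPM in EGFP and 13.2, 14.1 and 15.6 CPM in Zac1, a log2 fold change of 0.11 (SE 0.1). Nrp2 was at 25.98, 21.3 and 22.8 CPM in EGFP and 26.5, 18.9 and 20.4 CPM in Zac1, with a log2 fold change of -0.09 (SE 0.12). Both genes overlapped between the groups. For Nrp2 the spread followed EGFP 1 and Zac1 4, which were the highest of their groups, and without both of them the log2 fold change was -0.16 (SE 0.1). The genes that GENCODE M21 places over Nrp1 (Mir1903) and Nrp2 (Gm37121 and, on the opposite strand, Gm29083) had 0 reads in every library, and no gene overlaps the other 7.

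Levels of different genes were compared per kilobase of exon. In the EGFP libraries the order from high to low was Vegfb (21.7 ± 0.363 CPM per kb), Vegfa (10.4 ± 1.13), Flt4 (7.51 ± 0.197), Pgf (3.65 ± 0.271), Nrp2 (1.97 ± 0.202), Vegfc (1.89 ± 0.336), Nrp1 (1.36 ± 0.0393), Flt1 (0.121 ± 0.0209) and Kdr (0.00994 ± 0.0114; SD, n = 3). The libraries of Nrp2 and Vegfc overlapped, and those of the other neighbours did not. In the Zac1 libraries the order was the same except that Vegfc stood before Nrp2, and there the libraries of Nrp2 and Nrp1 overlapped. Flt1 rose to 0.589 ± 0.0646 CPM per kb and kept its place between Nrp1 and Kdr, and Pgf, at 6.05 ± 0.459, stayed below Flt4 and above Vegfc. With the longest transcript as the length, the first 4 and the last 2 genes kept their places and Nrp1 moved before Nrp2 and Vegfc. The ligands therefore outweighed Flt1 in both groups. Pgf made up 10.6%, 9.72% and 8.81% of the summed level of the 4 ligands in EGFP 1, 2 and 3 and 14.2%, 14.77% and 13.1% in Zac1 4, 5 and 6. Vegfa exceeded Pgf by 2.86 ± 0.48 times in EGFP and by 1.89 ± 0.2 times in Zac1.

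**Figure D3:**
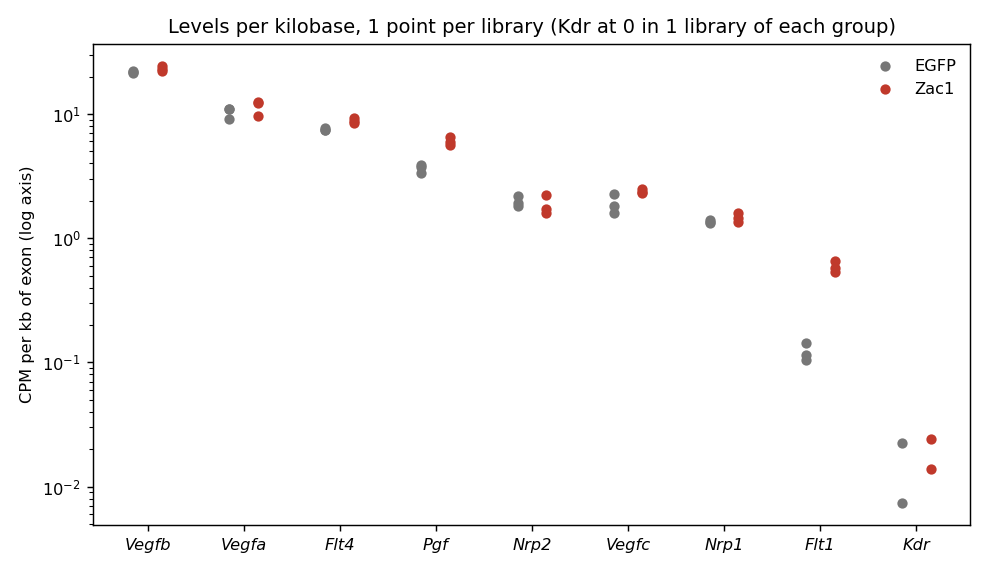
CPM per kilobase of exon (log axis) of the 9 genes, ordered by their EGFP mean, with 1 point per EGFP (grey) or Zac1 (red) library; Kdr is at 0 in 1 library of each group, which a log axis cannot show. Vegfb leads and Kdr is last in both groups, and Flt1 moves from 0.121 to 0.589 while it stays below Nrp1.

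FLT1 is a marker of endothelium, so markers of the cell types a culture could hold were read beside it. Of 21 endothelial markers 9 had 0 reads in every library, among them the defining markers Tie1 and Emcn. Cdh5 had 1 read in all and Pecam1 17 reads in EGFP and 38 in Zac1. The scaled ratio of Pecam1 was 1.94 (exact interval as for Kdr, 1.07 to 3.67, counting error only). Vwf had 2 reads in EGFP and 12 in Zac1, a ratio of 5.21 (1.16 to 47.9). Both intervals lay above 1. Ratios below 1 were found for Plvap (0.372), Stab2 (0.347), Icam2 and Tek (0.869 each), and their intervals included 1. That of Mmrn2 (1.45) did so too. The summed level of the list was 17.8 to 22.8 CPM in EGFP and 23.7 to 26.5 CPM in Zac1, of which the phosphatase gene Ptprb alone gave 14.1 to 18.0 and 17.6 to 21.4 CPM. None of the 3 endothelial markers that could be tested was called by edgeR, though 2 had an unadjusted p under 0.05. The fitted log2 fold changes were above 0 for Esam (0.86, edgeR adjusted p = 0.0895) and Ptprb (0.26, adjusted p = 0.251). That of Ecscr was below 0 (-0.31, adjusted p = 0.63). Of 8 macrophage markers, 2 were at 0 in every library. Of the defining ones, Adgre1 had 2 reads in all and Ptprc 31 in EGFP and 25 in Zac1. Cd68, the 1 marker tested, was not called by edgeR (log2 fold change -0.48, adjusted p = 0.456). The list summed to 2.43 to 2.89 CPM in EGFP and 2.06 to 2.77 CPM in Zac1. Among 8 stellate and fibroblast markers Lrat and Dcn were at 0, and the list summed to at most 0.0676 CPM in EGFP and 0.498 to 0.881 CPM in Zac1. In this list Des had 2 reads in EGFP and 13 in Zac1 (5, 7 and 1 by library). Its scaled ratio was 5.65 (1.28 to 51.5, counting error only), an interval above 1. The part of such cells in the family's levels was not tested. The hepatocyte factor Hnf4a was at 201 ± 9.92 CPM in EGFP and 206 ± 4.01 CPM in Zac1, and Alb at 34.7 ± 1.18 and 34.7 ± 1.99 CPM (SD, n = 3). Ttr, a secreted hepatocyte protein, fell (log2 fold change -0.67, adjusted p = 0.000211).

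Beside the family, 7 lists of its pathway were read, 101 tested genes in all. Of these 15 were called higher and 0 lower, against 3.12% and 0.668% of all tested genes. The lists were drawn up with earlier results of these data known, in which Icam1, Egr1 and Thbs1 had risen, so the count is a description. The values of Icam1, Egr1 and Thbs1 are a description too, given without p-values. Nr4a3 and Car9 met the count minimum only through their Zac1 libraries and so had to differ; of the other 99 genes 13 were called higher and 0 lower. The count of 15 fell to 5 without EGFP 3, Zac1 5 or Zac1 6 (1.55% to 1.76% of all genes higher in those fits) and to 8 without EGFP 1 or EGFP 2 (2.51% to 2.75%). Without EGFP 1 and Zac1 4 together it was 23 higher and 6 lower, beside 7.0% and 4.99% of all genes. Without Zac1 4 alone it was 18 higher and 4 lower, beside 4.82% and 3.13%.

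Among genes for signalling proteins below the receptors, 44 of 50 listed were tested. EdgeR called 0 of them, beside 3.12% of all tested genes called higher and 0.668% lower. Of the 44, 7 had an unadjusted p under 0.05, and DESeq2 and limma-voom also called 0. The log2 fold changes of the 44 lay between -0.18 and 0.21 with a median of 0.02. The smallest p-values belonged to Vav2 (0.17, adjusted p = 0.0754), and Pik3ca, a catalytic subunit of PI3-kinase (-0.18, adjusted p = 0.117). Without Zac1 4, 2 of the 44 were called higher and 3 lower, beside 4.82% and 3.13% of all genes tested in that fit. Without EGFP 1 and Zac1 4 together, 5 were higher and 3 lower, beside 7.0% and 4.99%. With the least-squares GC curve 0 were higher and 3 lower, beside 2.79% and 5.86%.

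Of 16 genes that VEGF is known to induce in endothelium, 11 were tested, with a median log2 fold change of 0.23. Of these 4 were called higher and 0 lower, beside 3.12% and 0.668% of all tested genes. Leaving Nr4a3 aside, 3 of 10 rose. Icam1, whose product binds leukocytes, went up 2.14-fold, from 28.2, 34.0 and 30.5 CPM to 58.9, 68.2 and 71.3 CPM (log2 fold change 1.1, SE 0.09). It was called with any single library left out, but its rise was known beforehand, so this is a description. The nuclear receptor gene Nr4a3 was read 3, 1 and 5 times in EGFP and 36, 37 and 35 times in Zac1 (log2 fold change 3.33, SE 0.4), and is given as a description because of how it passed the minimum. The transcription factor genes Egr1 (0.61, SE 0.15, a description for the same reason as Icam1) and Nr4a1 (0.46, edgeR adjusted p = 0.0377) also rose. Leaving out EGFP 1 or 3, or Zac1 5 or 6, ended the call of Egr1. Leaving out EGFP 2 or 3, or Zac1 5 or 6, ended that of Nr4a1 (edgeR adjusted p up to 0.194), as did DESeq2 and either GC curve. A count minimum of 50 ended both, and a robust variance that of Egr1. Egr3, named after its values were seen, had 0 reads in EGFP and 5, 13 and 25 in Zac1. Its summed reads were at least 12.5-fold higher against a floor of 3 counts over the EGFP group, a bound that does not cover the spread between libraries. These genes respond to many signals besides VEGF.

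The pathway of hypoxia-inducible factors (HIF), which drives Vegfa when oxygen is low, had 18 genes tested. Of these 3 were called higher and 0 lower, beside 3.12% and 0.668% of all tested genes. Leaving Car9 aside, 2 of 17 rose. The list's median was 0.05. Epas1, which encodes HIF-2 alpha, rose 2.02-fold, from 2.13, 1.88 and 2.23 CPM to 3.67, 4.41 and 4.52 CPM (log2 fold change 1.01, SE 0.19, adjusted p = 0.00731) and was called with any single library left out. Car9, a hypoxia-induced carbonic anhydrase, was read 6, 9 and 5 times in EGFP and 21, 28 and 33 times in Zac1 (log2 fold change 1.81, SE 0.35), a description for the same reason as Nr4a3. The prolyl hydroxylase gene Egln3 rose 1.26-fold (adjusted p = 0.0274), a call that DESeq2 did not make and that ended without EGFP 2 or 3 or Zac1 5 or 6 (up to 0.166). Hif1a was at 0.03 (adjusted p = 0.885).

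The 9 tested semaphorin and plexin genes that work with neuropilins had a median of 0.23. Of these 3 rose and 0 fell, beside 3.12% and 0.668% of all tested genes. The 3 were Plxna2 (log2 fold change 0.23, adjusted p = 0.0152) and Plxnd1 (0.26, adjusted p = 0.0362), both plexin receptors, and Sema3f (0.42, adjusted p = 0.0398), a ligand of NRP2. None of the 3 calls held without EGFP 2 or 3 or Zac1 5 or 6 (adjusted p up to 0.222), and those of Plxnd1 and Sema3f also ended without EGFP 1, with a count minimum of 50 and with either GC curve. The log2 fold change of Plxnd1 was -0.05 with the least-squares curve. Among 5 tested genes of VEGF-C processing, Ccbe1, a secreted cofactor of VEGF-C cleavage, rose from 260, 253 and 263 CPM to 301, 296 and 289 CPM (0.19, SE 0.05, adjusted p = 0.0332). That call held only with Zac1 4 left out among the single libraries (adjusted p up to 0.193 without the others). Vegfd, a further VEGF ligand kept in this list, was under the count minimum, with 5, 10 and 11 reads in EGFP and 4, 4 and 6 in Zac1, a scaled ratio of 0.468 (exact 95% interval 0.226 to 0.929, counting error only). The protease gene Furin was at 0.11 (adjusted p = 0.286), and the list's median was 0.11.

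**Figure D4:**
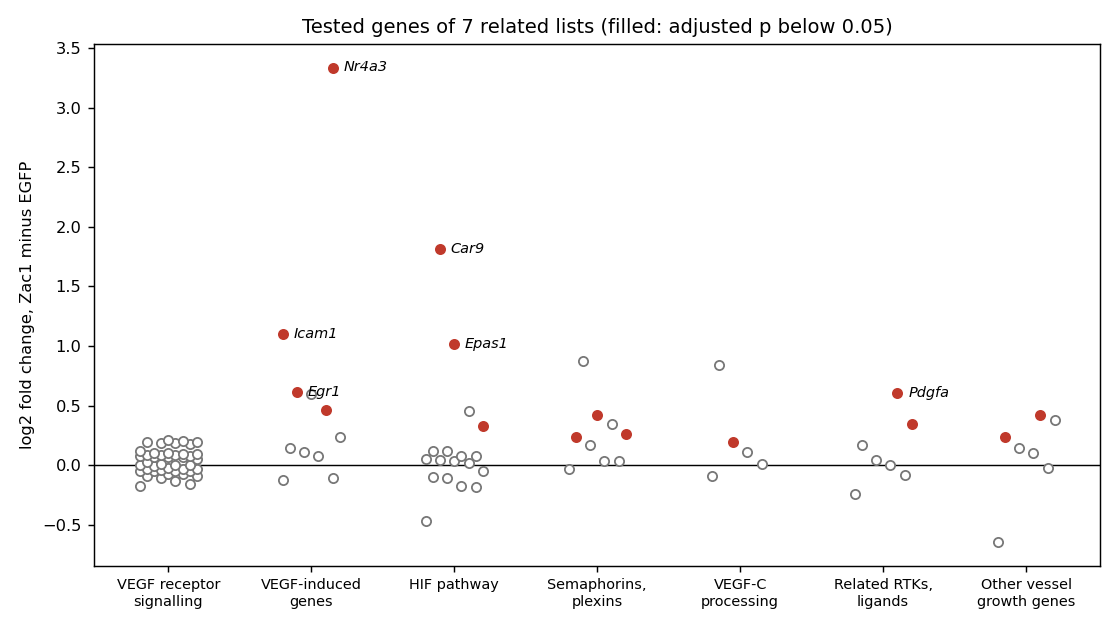
Log2 fold changes (Zac1 minus EGFP, vertical axis) of the tested genes in the 7 lists, 1 point per gene, filled red where the edgeR adjusted p over all genes tested was below 0.05. The 44 signalling genes lie between -0.18 and 0.21 with none filled, and the filled points of the other lists are all above 0, up to Nr4a3 at 3.33.

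The receptor kinases nearest to the VEGF receptors were close to silent. Pdgfra, Pdgfrb and Csf1r had 0 reads in every EGFP library and Kit and Flt3 had 0 in all 6. Csf1r, the CSF-1 receptor gene and also a macrophage marker, was read 7, 4 and 19 times in Zac1. Its summed reads were at least 8.69-fold higher against a floor of 3 counts over the EGFP group. That bound does not cover the spread between the Zac1 libraries. Pdgfra had 0, 5 and 3 reads in Zac1 and Pdgfrb 0, 2 and 4, and both also stand among the stellate and fibroblast markers above. Of this list 7 genes were tested, all of them ligands (median 0.04). Of these 2 rose and 0 fell, beside 3.12% and 0.668% of all tested genes. The growth factor gene Pdgfa rose from 15.3, 15.2 and 15.5 CPM to 22.5, 22.6 and 24.7 CPM (log2 fold change 0.61, SE 0.09, adjusted p = 0.00105) and was called with any single library left out. Pdgfb rose less (0.34, adjusted p = 0.0252) and its call ended without EGFP 1 or 3 or Zac1 5 or 6 (up to 0.129) and with either GC curve. Among 7 tested genes of other vessel growth systems (median 0.14), 2 rose and 0 fell, beside the same shares of all tested genes. The 2 were Thbs1, an inhibitor of angiogenesis (0.42, SE 0.09), and Efnb2, an ephrin (0.24, edgeR adjusted p = 0.0392). The rise of Thbs1 was known beforehand, so its values are a description. Its call ended without EGFP 1 or 3 or Zac1 5 or 6. That of Efnb2 ended without EGFP 1 or 2 or Zac1 5 or 6 (edgeR adjusted p up to 0.145), with a count minimum of 50 and with the least-squares GC curve.

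Likeness to the pattern of Flt1 over the 6 libraries was measured by Pearson's r of log2(CPM + 1) among 9896 genes. The pool was named genes whose counts averaged 50 or more, without the family's members, predicted genes, clones and pseudogenes. The genes most like Flt1 were Efna2 (0.997), Rasa3 (0.996), P2ry2 (0.996), Add3 (0.995) and Plagl1 itself (0.994). The 6 points share the 2 groups, and 347 genes had an r above 0.9. The measure ignores the size of the change. These genes were picked for following Flt1 in the same 6 libraries, so their fold changes are a description, given without p-values. Efna2, an ephrin, was at 1.64 on the log2 scale (SE 0.19), whereas Rasa3, a GTPase-activating protein, was at 0.18 (SE 0.07). P2ry2, a nucleotide receptor gene, was at 0.76 (SE 0.16) and the adducin gene Add3 at 0.56 (SE 0.08).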

How the data were processed

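The values are gene-level read counts that the authors deposited in a single table, each library separate. The table is named as normalized, but it holds whole numbers without gaps and unequal totals, so the values were treated as unscaled counts. FastQC, STAR, HTSeq and DESeq2 are named, per the submitters' processing notes, without settings. The library kit marks strand, but the sources used here give neither the build and annotation nor whether counting used strand.

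Symbols and gene models came from GENCODE M21 (GRCm38), which matched 49326 of 49585 IDs. Genes averaging 10 or more counts were tested over the whole table for Zac1 minus EGFP, two-sided, with TMM scaling and the quasi-likelihood test of edgeR 4.0.16 (R 4.3.3, prior count 0.125), and Benjamini-Hochberg adjusted p-values called below 0.05. The SE is the log2 fold change divided by the square root of F. CPM use TMM-scaled totals, and levels per kilobase the union of exons. The code was checked on simulated counts. DESeq2 1.42.0 and limma 3.58.1 were alternatives, with other filters and scalings, GC curves (loess, span 0.3, GC content of the longest transcript; the least-squares version was added after seeing the data) and left-out libraries.

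The members and lists were chosen with earlier results of these data known. The text names the 9 members, Plagl1, up to 4 genes past the test by p of each pathway list (or the 2 with the smallest p), the 5 genes most like Flt1 and defining markers. Other genes are named as their list's background or chosen after their values were seen. Promoter windows came from RefSeq; all 9 genes matched.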

Additional observations from a re-analysis of the deposited data

How the results depend on the processing

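No paired analysis was possible because the replicate numbers 1 to 3 (EGFP) and 4 to 6 (Zac1) are not shared between the groups. Flt1 (log2 fold change 2.19 to 2.43) and Pgf (0.59 to 0.82) were called higher in all 18 other settings. Flt4 was not called with a count minimum of 50 (0.24), with DESeq2 (0.23), with the robust (0.17) or least-squares GC curve (0.093), or in 5 of the 6 fits with 1 library left out (0.203 to 0.263 over all 6). Nrp2 turned to 0.0046 without Zac1 5, and lay between -0.249 and 0.0046 with 1 library left out. Vegfb turned to -0.039 with the robust GC curve and to -0.27 with the least-squares one, which then called 1 of the family lower; Plxnd1 turned to -0.048 with the latter. The 15 higher and 0 lower pathway genes became 8 higher with a count minimum of 50, 5 to 18 higher and 0 to 4 lower with 1 library left out, 23 higher and 6 lower without EGFP 1 and Zac1 4 together, 1 lower with no filter and 6 lower with the least-squares GC curve. With no filter and without both libraries, edgeR gave nearly every gene the same trended variance (1563 prior degrees of freedom in the second), so those calls lean on other genes. Over all genes, 459 calls became 241 with a count minimum of 50, 979 with no filter and 1461 without both libraries. They became 477 with the robust GC curve, 1048 with the least-squares one and 206 to 963 with 1 library left out. Pairs of members apart per kilobase were 34 to 36 of 36 in every setting. The cause was not tested. Depth limits Kdr and the other genes under the count minimum.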
